A study of Rattus norvegicus with 12 samples.

Results

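The 10 genes described here are carried by the mitochondrial genome and encode core subunits of the respiratory chain and of ATP synthase. They were chosen by Ensembl rat gene identifier, and all 10 were present among the 21698 genes of the deposited table. The members are Mt-nd1 (ENSRNOG00000030644), Mt-nd2 (ENSRNOG00000031033), Mt-nd4 (ENSRNOG00000029707), Mt-nd5 (ENSRNOG00000029971) and Mt-nd6 (ENSRNOG00000029042) of complex I. They further include Mt-cyb (ENSRNOG00000031766) of complex III, Mt-co1 (ENSRNOG00000034234), Mt-co2 (ENSRNOG00000030371) and Mt-co3 (ENSRNOG00000030700) of complex IV, and Mt-atp6 (ENSRNOG00000031979) of ATP synthase, also called complex V. The table lists identifiers without names, so the names rest on the identifiers alone.

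RNA-seq read counts were available for 12 libraries from 2 rat kidney cell lines, with 3 libraries in each of 4 groups. NRK-52E, a tubule-like epithelial line, had received vehicle or 40 µM cisplatin, a DNA-crosslinking platinum drug. Cells were exposed for 6 h and then kept for 24 h without the drug, per the labels' protocol, but treated for 24 h per the series' design text, so the time of harvest is not settled. NRK-49F is a kidney fibroblast line, and it had spent 24 h in conditioned medium taken from untreated NRK-52E (untreated medium) or from NRK-52E given 40 µM cisplatin (cisplatin medium). The labels name no other agent or genetic change in any group, and each cell type is represented by 1 established line. Separate cultures are not stated for the 3 libraries of any group. The p-values therefore reflect only how far these libraries differ among themselves, and that spread may be technical. Marker genes of the lines were not checked, because the table holds no gene names. In bulk RNA, fewer transcripts per cell and fewer cells of a kind cannot be told apart.

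Mitochondrial DNA is transcribed from promoters on its heavy and light strands into long precursors. These are cut into separate messages, mostly at the transfer RNAs that lie between many of the genes. Of the members, Mt-nd6 comes from the light-strand transcript and the others from the heavy-strand transcript. Complex I takes electrons from NADH, complex III passes them to cytochrome c, and complex IV hands them to oxygen. The proton gradient that results drives ATP synthase. Kidney tubule cells depend strongly on this route for energy, and mitochondria are a known site of cisplatin injury. Most mitochondrial messages carry short poly(A) tails, and the libraries were prepared with a stranded mRNA kit, so the counts reflect messages captured by such a kit.

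Library totals ranged from 9684887 to 12549675 counts. Even the member with the fewest counts, Mt-nd6, had 2243 or more in every library, and all 10 members passed the filter on low counts in each fit.

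The summed share of the 10 members in all counts was lowest in vehicle-treated NRK-52E. It was 3.01%, 2.95% and 2.99% in the 3 vehicle libraries and 3.09%, 3.54% and 3.76% in the 3 cisplatin libraries. All cisplatin libraries lay above all vehicle libraries, but replicate 1 did so narrowly. Means were 2.98% ± 0.0333 for vehicle and 3.46% ± 0.341 for cisplatin (SD, 3 libraries each), a ratio of 1.16. An exact permutation test, two-sided, returned p = 0.1, the smallest value that 3 libraries against 3 allow. Without cisplatin replicate 1, the lowest of its group, the ratio was 1.22. Without cisplatin replicate 3, the highest, the ratio was smaller than with all libraries. For the sum, the separation depended on Mt-co1, the member with the most counts. With it left out of the sum the groups overlapped, and the difference went from 0.481 to 0.182 percentage points (exact permutation p = 0.4). Taken apart, the summed complex I members (means 0.779% and 0.888% of all counts) and Mt-cyb (0.261% and 0.331%) also lay wholly above with cisplatin. Among the complex I members taken singly, only Mt-nd2 lay wholly above, and Mt-nd1, Mt-nd4, Mt-nd5 and Mt-nd6 overlapped in share of all counts. Mt-co3 and Mt-atp6 overlapped too, and Mt-co2 lay wholly below. On that scale 41.5% of all genes tested lay wholly above and 36% wholly below.

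In NRK-49F the share in all counts did not separate the media. It was 3.60%, 3.95% and 3.67% with untreated medium and 3.64%, 3.60% and 3.64% with cisplatin medium. The groups overlapped, and replicate 2 of the untreated medium was the highest of the 12 libraries. The means were 3.74% ± 0.188 and 3.63% ± 0.0207 (SD, n = 3 each), a difference of -0.113 percentage points (exact two-sided permutation p = 0.5). Without untreated-medium replicate 2 the difference was -0.0058 percentage points. With the 10 most abundant other genes taken out of the denominator the media did separate, at -0.17 percentage points (exact permutation p = 0.1). Ordered by mean share, the groups ran from NRK-52E vehicle through NRK-52E cisplatin and NRK-49F cisplatin medium to NRK-49F untreated medium. For the sum of all 10 members in all counts, only the vehicle group stood clear of its neighbour in that order, since the ranges of the other 3 groups overlapped. Wilson 95% intervals of the shares were at most 0.012 percentage points to either side, which covers counting error only.

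**Figure D1:**
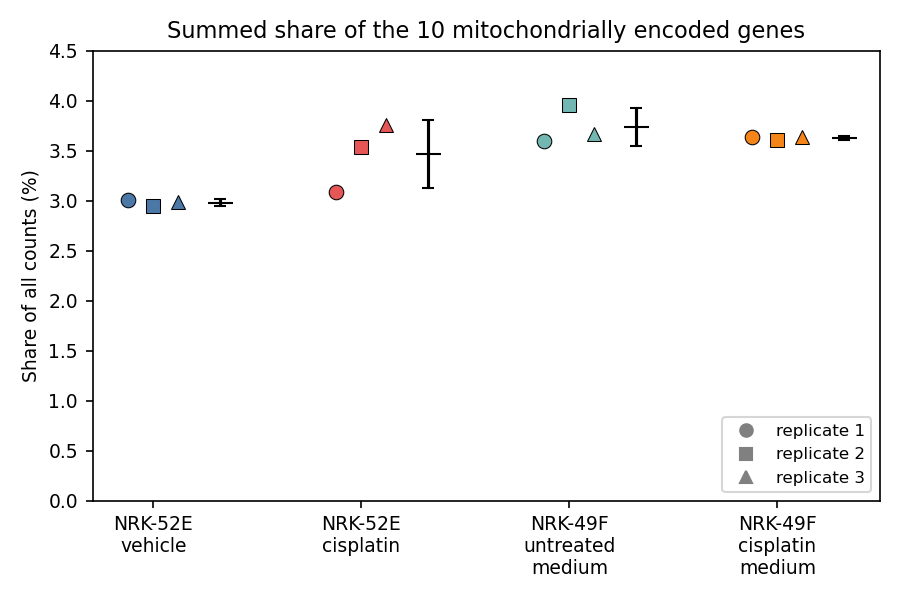
Summed counts of the 10 mitochondrially encoded genes as a percent of all counts (y axis) in the 4 groups (x axis). Symbols are single libraries, and the bars at the right of each group are the mean ± SD of 3 libraries. The NRK-52E vehicle libraries lie at 2.95% to 3.01%, below all others, and the cisplatin libraries spread from 3.09% to 3.76%.

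With cisplatin the members did not move as a block in NRK-52E. Mt-nd2, Mt-co1, Mt-cyb and Mt-nd1 rose, Mt-co2 fell, and the remaining 5 did not pass the test. Thus 5 of 10 members were called by the quasi-likelihood test of edgeR (threshold 0.05 after Benjamini-Hochberg adjustment), with counts scaled by TMM factors, which align the bulk of genes between libraries. Of all 12508 genes tested, 76.2% were called, 38.7% higher and 37.6% lower, so the share of members called was below that of the table. The median log2 fold change was 0.08 for the members and 0.01 for all genes, and the median absolute log2 fold change was 0.12 and 0.47. The median of the members was 0.15 without cisplatin replicate 1, 0.03 without cisplatin replicate 3 and 0.12 with library size as the only scaling. With no filter on low counts it was 0.03 and lay below the median of all genes, 0.20. No member was called in the test against a 1.5-fold change, which 31% of all genes passed.

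Mt-co1 encodes the catalytic core subunit of cytochrome c oxidase, complex IV. Its level was 9779, 9468 and 9936 CPM (counts scaled to a common library size, with TMM factors over all 12 libraries) in the vehicle libraries and 10695, 12259 and 13440.0 CPM in the cisplatin libraries. The cisplatin libraries lay wholly above. The log2 fold change was 0.30 ± 0.05 (SE; edgeR adjusted p = 2.06e-06).

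Mt-co2, whose subunit receives electrons from cytochrome c in the same complex, went the other way. The vehicle libraries held 2298, 2238 and 2135 CPM (TMM-scaled) and the cisplatin libraries 1697, 1863 and 2016 CPM. All cisplatin libraries lay below all vehicle libraries. Its log2 fold change was -0.27 ± 0.05 (SE; edgeR adjusted p = 2.32e-06). Mt-co3, the third core subunit of this complex, had 2953 to 3088 CPM with vehicle and 2926 to 3463 CPM with cisplatin, and its groups overlapped. With a log2 fold change of 0.09 (95% interval -0.01 to 0.18) it did not pass (edgeR adjusted p = 0.0849).

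The ratio of Mt-co2 to Mt-co1 counts, which needs no scaling between libraries, was 0.235, 0.236 and 0.215 with vehicle and 0.159, 0.152 and 0.15 with cisplatin. In NRK-49F it was 0.219, 0.221 and 0.229 with untreated medium and 0.227, 0.225 and 0.22 with cisplatin medium. The 9 libraries without direct cisplatin thus lay between 0.215 and 0.236, and the 3 with cisplatin stood below them. Within NRK-52E this separation follows from the levels above, since Mt-co2 lay wholly below and Mt-co1 wholly above. Other pairs differed between the lines without the drug. The ratio of Mt-nd4 to Mt-cyb averaged 0.877 with vehicle and 0.706 with cisplatin in NRK-52E. In NRK-49F it averaged 0.408 with untreated medium and 0.411 with cisplatin medium.

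Mt-cyb encodes cytochrome b, the only mitochondrially encoded subunit of complex III. It stood at 2279, 2250 and 2331 CPM (TMM-scaled) with vehicle and at 2605, 2968 and 2993 CPM with cisplatin, with no overlap. The log2 fold change was 0.30 ± 0.04 (SE; edgeR adjusted p = 1.48e-07).

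Among the complex I members, all of which encode membrane-arm subunits, Mt-nd2 rose most. Its vehicle libraries were within 2145 to 2153 CPM (TMM-scaled), and its cisplatin libraries held 2413, 2797 and 2955 CPM, all above. The log2 fold change was 0.32 ± 0.05 (SE; edgeR adjusted p = 2.41e-07). Mt-nd1 had 1529, 1490 and 1552 CPM with vehicle and 1516, 1775 and 1825 CPM with cisplatin. Replicate 1 of its cisplatin libraries lay inside the vehicle range, and its call at a log2 fold change of 0.15 (edgeR adjusted p = 0.00606) was lost in DESeq2 (adjusted p = 0.0845) and without cisplatin replicate 2 or 3 or vehicle replicate 2 (edgeR adjusted p = 0.0619 to 0.0757).

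Mt-nd4, Mt-nd5 and Mt-nd6 did not pass, and for each the groups overlapped. Mt-nd4 had 1987 to 2029 CPM (TMM-scaled) with vehicle and 1836 to 2136 CPM with cisplatin. Its log2 fold change was -0.01 (95% interval -0.10 to 0.08), a value whose sign turned with library size as the only scaling. Mt-nd5 gave 0.04 (95% interval -0.04 to 0.13), and Mt-nd6, the light-strand member, gave 0.07 (95% interval -0.03 to 0.17). Reads on either strand may have been counted for the overlapping ends of opposite-strand transcripts, since the strand setting is not given in the sources used here. Mt-atp6, which encodes the proton-channel subunit of ATP synthase, had 1992 to 2151 CPM with vehicle and 1901 to 2325 CPM with cisplatin. Its log2 fold change was 0.01 (95% interval -0.09 to 0.11).

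The groups did not overlap for 3 members that were higher and 1 that was lower with cisplatin in TMM-scaled CPM, where 39.3% and 38.5% of all genes tested did so. Cisplatin replicate 1 weighed on these counts. It held the lowest level of the cisplatin group for all 10 members, and replicate 3 held the highest for 9, all but Mt-nd6. Without replicate 1, 9 members were called, 8 higher and Mt-co2 lower, and only Mt-nd4 did not pass. With library size as the only scaling 7 were called, 6 higher and Mt-co2 lower, where 41.2% of all genes were higher and 35.3% lower.

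**Figure D2:**
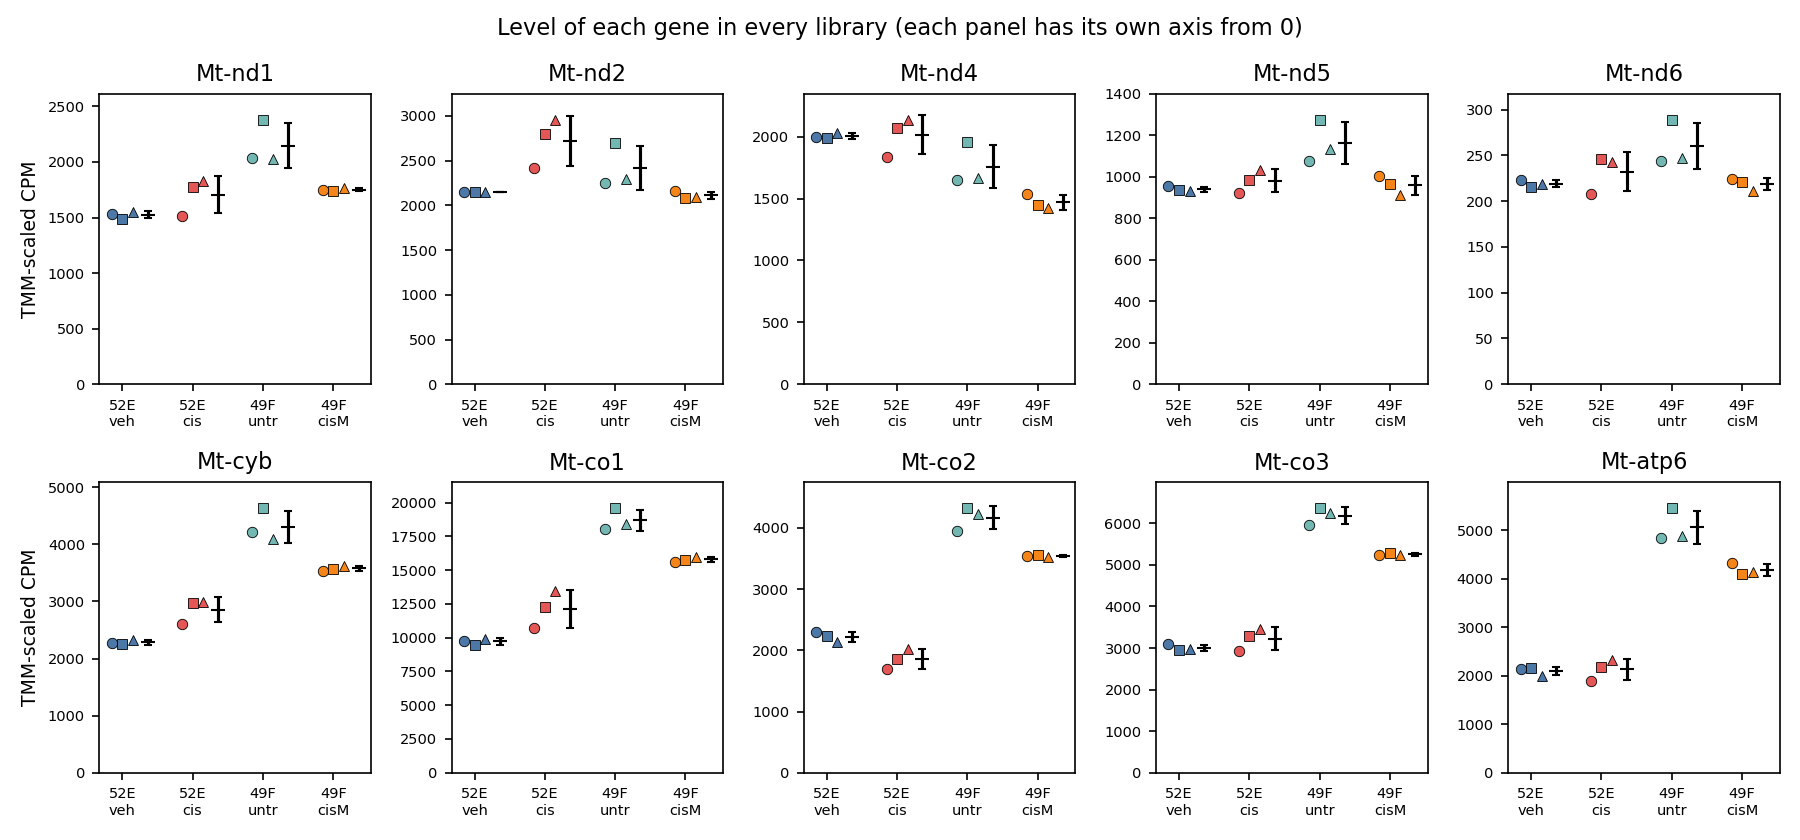
TMM-scaled CPM (y axis, from 0 in each panel) of each gene in the 12 libraries, grouped on the x axis as NRK-52E vehicle, NRK-52E cisplatin, NRK-49F untreated medium and NRK-49F cisplatin medium. Circles, squares and triangles are replicates 1, 2 and 3, and bars are the mean ± SD of 3 libraries. Replicate 1 is the lowest cisplatin library in every panel, and replicate 2 is the highest untreated-medium library in every panel.

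In the NRK-52E cisplatin and NRK-49F untreated-medium groups, the range of variation between replicate libraries reached higher for levels than for the proportions of the members. Coefficients of variation of the members' TMM-scaled CPM were 5.65% to 11.3% in the NRK-52E cisplatin group and 0.194% to 4.31% in the vehicle group. When each member was expressed as a percent of the summed counts of the 10 members, here called the make-up, the coefficients were 0.39% to 4.32% in the cisplatin group and 0.666% to 4.72% in the vehicle group. In NRK-49F with untreated medium they were 3.39% to 10.3% for levels and 1.07% to 4.87% for the make-up. Replicate 2 held the highest level of that group for all 10 members. With cisplatin medium the levels varied by 0.422% to 4.75% and the make-up by 0.645% to 4.80%, so that in this group and the vehicle group the range for levels did not reach above that for the make-up.

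The make-up of the set differed between vehicle and cisplatin libraries for 9 of 10 members without overlap. Mt-nd2, Mt-co1 and Mt-cyb took larger shares of the set with cisplatin, and Mt-nd4, Mt-nd5, Mt-nd6, Mt-co2, Mt-co3 and Mt-atp6 took smaller ones. Relative to the members' summed counts, 28.2% of all genes tested lay above and 43.3% below without overlap. The largest shift was that of Mt-co2, from 8.13% to 8.69% of the set with vehicle to 6.12% to 6.35% with cisplatin, a ratio of means of 0.733. Mt-nd4 went from 7.55% to 7.73% to 6.59% to 6.87%, a ratio of 0.883, and Mt-atp6 from 7.59% to 8.33% to 7.11% to 7.17%, a ratio of 0.891. Mt-co1 went from 36.6% to 37.9% to 40.0% to 41.4%, a ratio of 1.09, and Mt-nd2 from 8.14% to 8.30% to 9.03% to 9.19%, a ratio of 1.11. Shares of a set sum to a fixed total, so these values are not independent of each other. The counts are not corrected for gene length, so levels of different members are not compared.

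**Figure D3:**
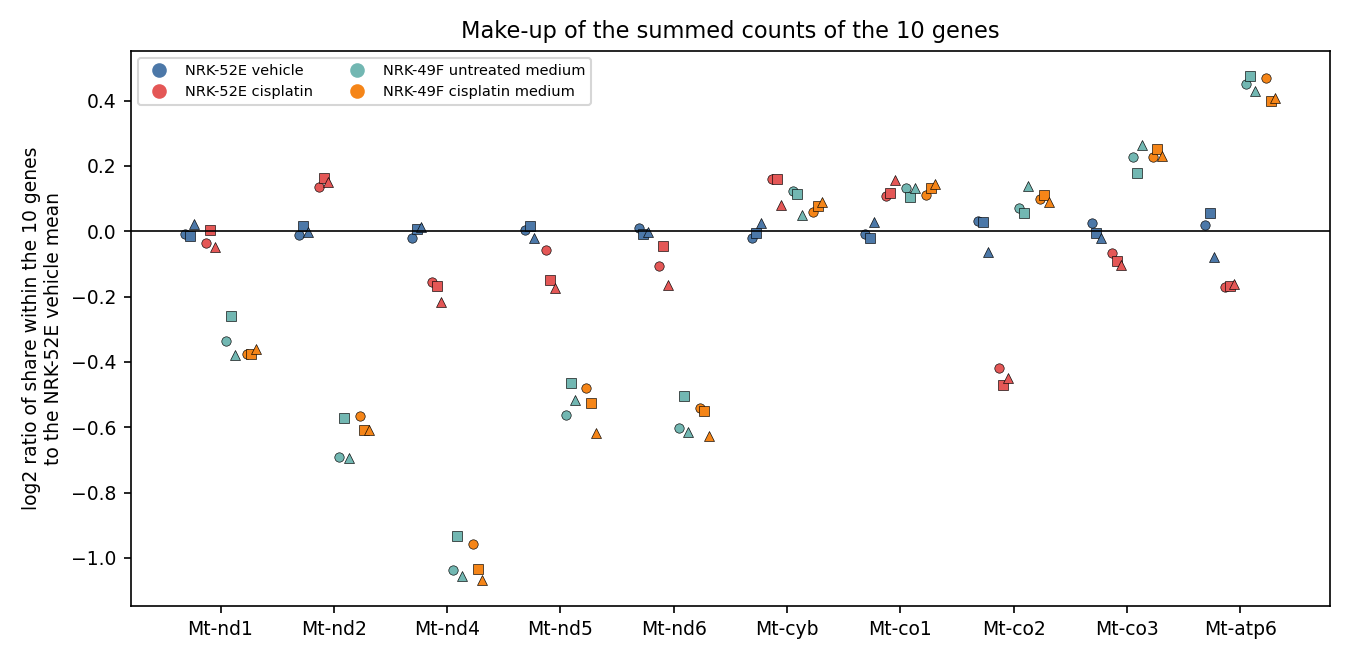
Each gene's percent of the summed counts of the 10 genes, as the log2 ratio to its mean in NRK-52E vehicle libraries (y axis), for every library (symbols as replicates 1 to 3, colours as groups) by gene (x axis). Mt-co2 is low in the 3 NRK-52E cisplatin libraries alone, and the 2 NRK-49F groups overlap for every gene while the 5 complex I genes lie below the NRK-52E vehicle mean in both.

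In NRK-49F the members moved together, but whether they moved at all depended on the scaling. With TMM factors all 10 members fell in cisplatin medium, by 0.19 to 0.29 on the log2 scale, whereas with library size only 9 kept a negative sign, Mt-nd2 stood at 0.01, and a single call remained. That call was Mt-nd1, at a log2 fold change of -0.09 and an edgeR adjusted p that rounds to 0.05. TMM factors were 0.93 to 0.934 with untreated medium and 1.07 with cisplatin medium, and leaving them out moved the median over all genes (log2) by 0.20. Changes in this line are therefore stated relative to the bulk of its genes. In all, 61.8% of 11525 genes tested were called with TMM, 30.8% higher and 31% lower. With library size only, 51.3% were higher and 16.7% lower. The test against a 1.5-fold change called no member and 10.3% of all genes. The median log2 fold change was -0.25 for the members and 0.02 for all genes with TMM, and -0.05 and 0.22 with library size only.

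Mt-nd1, which lies in the part of complex I where ubiquinone is bound, had the largest of these changes. Its TMM-scaled levels were 2039, 2378 and 2023 CPM with untreated medium and 1745, 1738 and 1766 CPM with cisplatin medium. The log2 fold change was -0.29 ± 0.04 (SE; edgeR adjusted p = 2.85e-07). Mt-nd2 had the smallest, with 2252, 2701 and 2294 CPM against 2158, 2086 and 2097 CPM. Its log2 fold change was -0.19 ± 0.04 (SE; edgeR adjusted p = 0.000338), and it was -0.11 without untreated-medium replicate 2.

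The complex IV members lay close together, with log2 fold changes of -0.24 for Mt-co1, -0.23 for Mt-co2 and -0.23 for Mt-co3. Mt-co1 stood at 18039.8, 19569.9 and 18427 CPM (TMM-scaled) with untreated medium and at 15632, 15775 and 16010.2 CPM with cisplatin medium. Mt-co2 stood at 3953, 4319 and 4226 CPM and at 3541, 3553 and 3523 CPM. Unlike in NRK-52E, these members thus had the same sign and nearly the same size of change. Mt-cyb gave -0.27 and Mt-atp6 -0.27, and Mt-nd4, Mt-nd5 and Mt-nd6 gave -0.26, -0.27 and -0.25. The edgeR adjusted p of these 5 was 1.7e-07 to 4.33e-05.

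In TMM-scaled CPM all 10 members lay lower in every cisplatin-medium library than in every untreated-medium library, where 32.6% of all genes did so and 32.9% lay higher. In CPM of the plain library total the groups overlapped for all 10 members, while 52.7% of all genes lay above and 17.6% below. The make-up of the set overlapped between the media for all 10 members as well, with ratios of means from 0.969 (Mt-nd1) to 1.04 (Mt-nd2). Scaled to the members' summed counts, 55.1% of all genes lay above and 14.2% below without overlap.

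**Figure D4:**
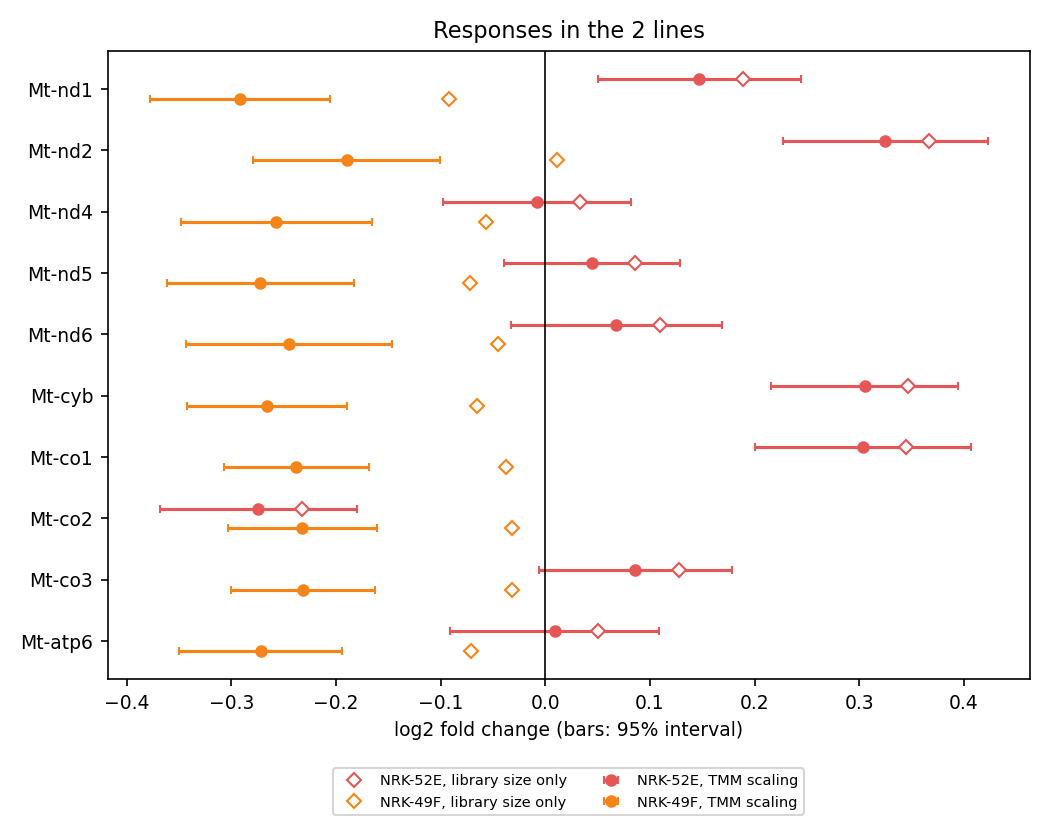
Log2 fold change (x axis) of each gene (y axis) with cisplatin in NRK-52E (red) and with cisplatin medium in NRK-49F (orange). Filled points with 95% intervals use TMM scaling and open points use library size only. NRK-49F values range from -0.29 to -0.19 with TMM and lie near 0 with library size only, where Mt-nd2 turns to 0.01. NRK-52E values range from -0.27 (Mt-co2) to 0.32 (Mt-nd2).

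The responses of the lines were compared directly in a single edgeR fit of the 12 libraries, as the log2 fold change in NRK-52E minus that in NRK-49F. One line met the drug and the other a medium, so line and agent cannot be told apart. For 9 of 10 members the response was higher in NRK-52E, and no member was called lower. Of 13127 genes tested, 66.5% were called, 33.9% higher and 32.6% lower. Against a 1.5-fold difference no member and 34.4% of all genes were called. The median difference was 0.34 for the members and 0.05 for all genes. The differences ran from 0.27 (Mt-nd4) to 0.59 (Mt-cyb, edgeR adjusted p = 6.32e-12). Mt-co2 alone did not pass, at -0.02 (95% interval -0.15 to 0.10, edgeR adjusted p = 0.762).

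These differences carried the scaling of NRK-49F with them. With library size only the median difference of all genes moved by -0.17, that of the members was 0.16, and 7 members were called. Mt-nd1, Mt-nd2, Mt-nd5, Mt-co1, Mt-co3 and Mt-cyb remained higher in NRK-52E, and Mt-co2 was then lower, at -0.20 (edgeR adjusted p = 0.003). Under that scaling 27.4% of all genes were higher and 39.6% lower. Mt-nd4, Mt-nd6 and Mt-atp6 did not pass there (edgeR adjusted p = 0.0611 to 0.239).

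Between the lines at baseline, NRK-49F with untreated medium was set against NRK-52E with vehicle, in the same fit of 12 libraries. Complex IV members, Mt-cyb and Mt-atp6 were higher in NRK-49F and Mt-nd4 was lower, under TMM and under library size only. The other complex I members depended on the scaling. With TMM 9 members were higher and 1 lower, where 81.7% of all 13127 genes were called, 40.9% higher and 40.9% lower. Against a 1.5-fold difference 5 members were called, all higher, and 51.1% of all genes. With library size only 5 were higher and 4 lower, where 26.5% of all genes were higher and 58.6% lower, and the median log2 difference of all genes moved by -0.49. The comparison cannot tell the line from the conditioned medium that NRK-49F had received.

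Mt-atp6 differed most. Its TMM-scaled levels were 2146, 2151 and 1992 CPM in NRK-52E and 4846, 5450 and 4882 CPM in NRK-49F, with no overlap. The log2 difference was 1.27 ± 0.05 (SE; edgeR adjusted p = 6.84e-28), and 0.78 with library size only. Mt-co3 followed at 1.04, then Mt-co1 at 0.94, Mt-cyb at 0.91 and Mt-co2 at 0.91. With library size only these 4 gave 0.41 to 0.55, each still called higher.

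Mt-nd4, the member lower in NRK-49F, had TMM-scaled levels of 1998, 1987 and 2029 CPM in NRK-52E and 1651, 1961 and 1666 CPM in NRK-49F. Its log2 difference was -0.19 ± 0.05 (SE; edgeR adjusted p = 0.000392), and -0.68 with library size only. Mt-nd2, Mt-nd5 and Mt-nd6 were called higher with TMM, at 0.17, 0.31 and 0.25, and lower with library size only, at -0.32, -0.19 and -0.25. Mt-nd1 was at 0.49 with TMM and at 0.00361 with library size only, where it was not called. No direction between the lines can thus be given for these 4 without naming the scaling. Mt-nd2 also lost its call in DESeq2 (adjusted p = 0.111) and without untreated-medium replicate 2 (edgeR adjusted p = 0.201).

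**Figure D5:**
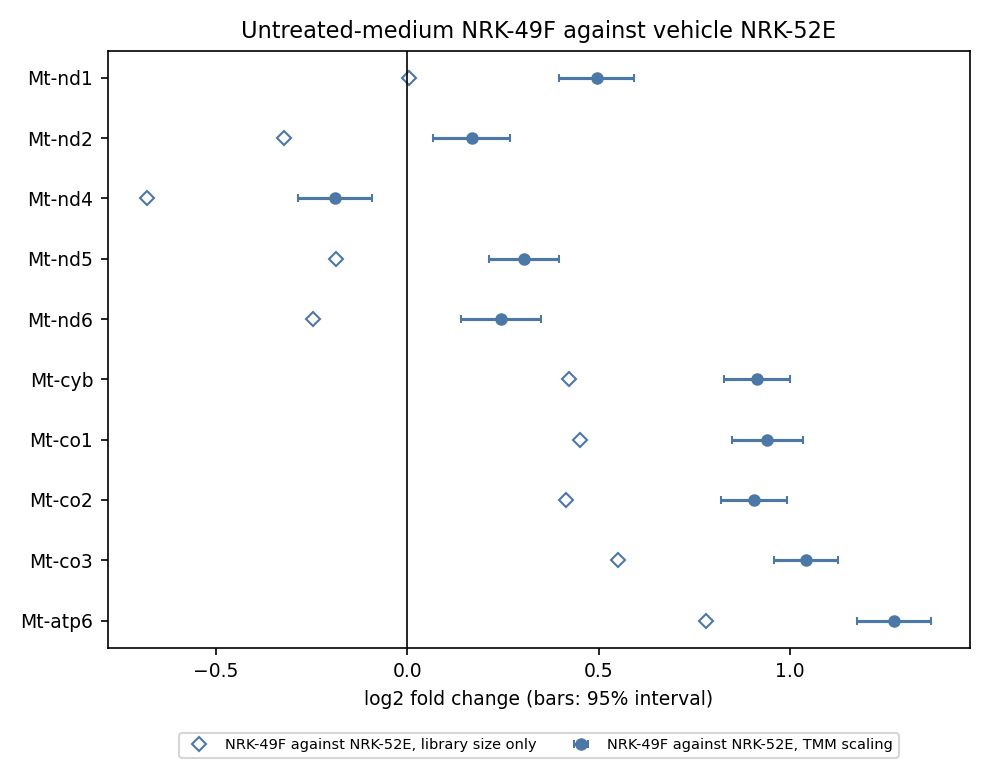
Log2 difference (x axis) of each gene (y axis) between NRK-49F with untreated medium and NRK-52E with vehicle, positive where NRK-49F was higher. Filled points with 95% intervals use TMM scaling and open points use library size only. Mt-atp6, Mt-cyb and the complex IV genes are above 0 under both scalings, Mt-nd4 is below 0 under both, and Mt-nd2, Mt-nd5 and Mt-nd6 change sign.

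The make-up, which does not depend on the scaling, split the set by complex. The 5 complex I members together held 25.9% to 26.2% of the set's counts in NRK-52E vehicle libraries and 16.3% to 17.6% in NRK-49F untreated-medium libraries. Each of these 5 took a smaller share of the set in NRK-49F, with ratios of means from 0.497 (Mt-nd4) to 0.798 (Mt-nd1). Each of the other 5 took a larger share, with ratios from 1.06 (Mt-co2) to 1.37 (Mt-atp6). Across all genes scaled to the members' summed counts, 19.4% lay above and 68.1% below without overlap. The complex I share was 25.3% to 25.9% with cisplatin, just under the vehicle range, and 16.5% to 17.1% with cisplatin medium, inside the untreated-medium range. Counts of Mt-nd6, the light-strand member, were also divided by those of Mt-nd5, its neighbour on the opposite strand. In NRK-52E the vehicle libraries averaged 0.233 ± 0.00331 (SD of 3 libraries, here and below), and the cisplatin libraries 0.237 ± 0.0128. NRK-49F libraries averaged 0.224 ± 0.00508 in untreated medium and 0.228 ± 0.00423 in cisplatin medium. Within each line the groups overlapped. Between the lines at baseline they did not, but the gap was narrow, at 0.229 to 0.236 in NRK-52E and 0.218 to 0.227 in NRK-49F. Over all 4 groups the lines overlapped. Cisplatin-medium libraries of NRK-49F reached 0.232, and cisplatin replicate 1 of NRK-52E stood at 0.225. Whether the gap at baseline exceeds counting error was not tested. The strand setting is not known, so Mt-nd6 counts may include opposite-strand reads. The ratio therefore cannot tell whether transcripts of both strands changed alike.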

How the data were processed

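The deposited file holds unnormalized counts for each Ensembl rat gene, with columns named by sample title. The submitters' processing notes name STAR 2.7.10a, featureCounts and Subread without roles. Genome build, annotation and strand setting: not given in the sources used here. Reads shared with nuclear copies of mitochondrial DNA may be counted or lost.

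Counts were tested with edgeR 4.0.16 in R 4.3.3: genes were kept by filterByExpr (10 counts, 15 in total), scaled by TMM, tested on the group with glmQLFTest and adjusted over all genes tested (Benjamini-Hochberg, threshold 0.05). Each line was fitted apart. The difference of the responses and the baseline comparison used a fit of 12 libraries. Printed CPM use TMM factors over 12 libraries. The standard error of a log2 fold change is its size over the square root of F. For shares, exact permutation tests (two-sided, smallest p 0.1) were used. Steps were tested on simulated data. Replicates of a group differed by more than sampling noise (chi-square per degree of freedom 1.67 to 3.84).

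The members, lists and tests were chosen with earlier results of these data known. The genes named are the 10 members and the 2 genes closest in pattern. Of the 21698 identifiers, 0 matched the RefSeq gene table (GRCr8), so the 11 lists of nuclear respiratory genes, regulators and markers were not run and no sequences are printed. Alternatives were DESeq2 1.42.0, other scalings, no filter, a 1.5-fold test, other denominators, each library left out, and a replicate block. Figures were drawn with matplotlib 3.10.9.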

Additional observations from a re-analysis of the deposited data

Results flagged for a closer look

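The test of the difference between the lines is why 9 members are given here: their log2 fold change with cisplatin in NRK-52E was higher than that with cisplatin medium in NRK-49F. The difference was 0.46 for Mt-nd1, 0.53 for Mt-nd2, 0.27 for Mt-nd4, 0.34 for Mt-nd5 and 0.33 for Mt-nd6 of complex I. It was 0.59 for Mt-cyb, 0.56 for Mt-co1, 0.34 for Mt-co3 and 0.30 for Mt-atp6. The edgeR adjusted p of the 9 was at most 0.000536, but 66.5% of all genes passed the same test, and with library size only Mt-nd4, Mt-nd6 and Mt-atp6 did not pass. Groups of 3 libraries were too small for a search for single deviating libraries.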

How the results depend on the processing

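No member reached the stricter test against a 1.5-fold change within either line or in the difference of the responses (0 called in each, against 31%, 10.3% and 34.4% of all genes), and 5 did so between the lines at baseline. With library size only, 1 member was called in NRK-49F. With 1 library left out, 4 to 9 members were called in NRK-52E, 10 in NRK-49F, 9 for the difference and 9 to 10 at baseline. The differences in summed share kept their sign under every alternative run, and ranged with 1 library left out from 0.334 to 0.668 percentage points in NRK-52E, from -0.183 to -0.0058 in NRK-49F and from 0.651 to 0.829 at baseline.

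Signs turned for members near 0 in NRK-52E. Mt-nd4 was 0.0335 with library size only, 0.0019 with RLE factors, 0.00196 with DESeq2, 0.0075 with all 12 libraries in the fit, and -0.0519 to 0.0572 with 1 library left out, the latter without cisplatin replicate 1. Mt-nd5 was -0.00033 and Mt-atp6 -0.036 with no filter on low counts. With 1 library left out Mt-atp6 was -0.0581 to 0.0873, below 0 without vehicle replicate 3 or cisplatin replicate 2 or 3. In NRK-49F, Mt-nd2 was 0.0107 with library size only. For the difference of the responses, Mt-co2 was -0.0914 to 0.0338 with 1 library left out, above 0 only without NRK-52E cisplatin replicate 1. At baseline with library size only, Mt-nd2 was -0.323, Mt-nd5 -0.186 and Mt-nd6 -0.245. The cause of these turns was not tested. The replicate block changed no call of a member, with 5, 10, 9 and 10 called in NRK-52E, NRK-49F, the difference and the baseline comparison. Same-numbered libraries showed little shared deviation (correlations across genes of -0.0507 to 0.0044 between the groups of NRK-52E and -0.0221 to 0.0212 in NRK-49F). Whether same-numbered libraries share a culture or a day is not stated, and correlations from so few libraries do not settle it.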

Other observations

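Of 9095 other genes with a mean of at least 10 CPM, the pattern of the members' summed TMM-scaled CPM over the 12 libraries was most closely matched by ENSRNOG00000014509 and ENSRNOG00000006816, whose names the files do not give. The root mean square difference of centred log2 values was 0.0543 and 0.0634, where the median over all genes compared was 0.486. ENSRNOG00000014509 stood at 98.5 ± 2.96 CPM with vehicle and 110 ± 8.01 CPM with cisplatin in NRK-52E, while NRK-49F had 182 ± 12.9 CPM (untreated medium) and 153 ± 6.56 CPM (cisplatin medium) (SD, n = 3 each). The likeness is a description over libraries that share their groups and scaling.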
